A study of Homo sapiens with 2 samples.

Results

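Keratins are the intermediate filament proteins of epithelial cells. A filament is built from pairs that join 1 acidic type I chain to 1 basic or neutral type II chain, so the families are used together. KRT8 with KRT18 is the pair of simple epithelia, joined in many glandular cells by KRT7 and KRT19, while KRT5, KRT15 and KRT17 are known from basal cells, KRT6A from stressed or wounded epithelium, and KRT81 from the hair shaft. Lung adenocarcinomas are typically positive for KRT7, KRT8, KRT18 and KRT19.

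The genes described here are 10 keratins found by symbol among the 20985 genes of the deposited table: the type I genes KRT15, KRT17, KRT18 and KRT19, and the type II genes KRT5, KRT6A, KRT7, KRT8, KRT80 and KRT81. All 10 were in the table. They were measured in polyadenylated RNA from parental HCC827 cells, an established lung adenocarcinoma line with an activating EGFR mutation, and from the resistant derivative HCC827 ZDR3, called ZDR3 from here on. The derivative came from HCC827 cells grown with gefitinib, an EGFR kinase inhibitor, from 10 nM over 1 month and in steps of 3-fold up to 1 µM, and 3 colonies were then taken. The labels do not say how ZDR3 relates to each of these colonies, nor whether the drug was present at harvest. The growth protocol, written for both groups, describes isotope-labelling medium with dialysed serum.

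Each group held 1 library, of 257192597 gene reads for parental and 243549866 for ZDR3 cells. Without replicates there is no test and no p-value, and what differs below differs between these 2 libraries. The level of a gene is its reads times a factor of the library, where 1 unit equals 143 reads in parental and 138 in ZDR3 cells. It is not corrected for gene length. Log2 ratios give ZDR3 relative to parental cells, with 1 unit added to each level first. A gene was called expressed if its level reached 1 in either library. Plain folds, taken without the added unit, carry exact 95% binomial (Clopper-Pearson) intervals, which cover counting error only. The labelled epithelial identity was checked on 8 markers: all 8 reached a level of 1 in parental and 7 in ZDR3 cells, and their summed level was 5329 and 496. CDH1, the gene of E-cadherin, had 181617 and 20105 reads, and EPCAM had 75357 and 8592.

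Most keratins were lower in the ZDR3 library, KRT80 was higher, and KRT7 was the abundant keratin that differed least. Of the 10 members 8 were expressed, of which KRT81 reached the minimum level in the parental library only. The direction of KRT81 was fixed by that and is no separate finding, also where it enters the counts and the median below. KRT5 and KRT17 stayed under the minimum level in both libraries. Among the 8 expressed members 5 were at least 2-fold lower (KRT8, KRT15, KRT18, KRT19 and KRT81), beside 9.68% of all 13777 expressed genes. KRT80 alone was at least 2-fold higher, beside 10.6% of all expressed genes. At a limit of 4-fold 2 members were lower (KRT15 and KRT81) and 0 higher, beside 3.15% and 3.5% of all expressed genes. The median log2 ratio of the 8 was -1.50, and that of all expressed genes was -0.03. In bulk RNA, fewer cells that make a keratin and less keratin RNA per cell cannot be told apart.

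The simple epithelial pair carried most of the keratin RNA. KRT8 (ENSG00000170421), the type II chain, had 814458 reads in parental and 291473 in ZDR3 cells, levels of 5701 and 2118. That made it 2.69-fold lower (2.68 to 2.70). Its partner KRT18 (ENSG00000111057), the type I chain, had 393865 and 127116 reads, levels of 2757 and 924, and was 2.98-fold lower (2.966 to 3.003). The ZDR3 library thus kept 37.2% of the parental KRT8 level and 33.5% of the KRT18 level. The pair moved nearly together: KRT8 reads per KRT18 read were 2.07 (2.06 to 2.08) in the parental and 2.29 (2.28 to 2.31) in the ZDR3 library, intervals that do not overlap.

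KRT19 (ENSG00000171345), a type I chain without the usual tail domain, was lower by somewhat more. It had 176264 reads in parental and 50823 in ZDR3 cells, levels of 1234 and 369, a 3.34-fold difference (3.31 to 3.37). KRT7 (ENSG00000135480), the type II chain that marks ductal and lung epithelium, had 373653 and 273815 reads. Its levels were 2615 and 1990, so it was 1.31-fold lower (1.31 to 1.32) and retained 76.1% of the parental level. KRT7 made up more of the keratin RNA in ZDR3 cells: its reads per KRT8 read were 0.459 in the parental and 0.939 in the ZDR3 library, and its reads per KRT19 read were 2.12 and 5.39.

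KRT80 (ENSG00000167767), a type II keratin found in many epithelia near desmosomes and cell margins, went the other way. It had 27348 reads in parental and 53724 in ZDR3 cells, levels of 191 and 390. The plain fold was 2.04 in favour of the ZDR3 library (2.01 to 2.07), which lies close to the 2-fold limit. KRT80 shares little sequence with other genes. Of the 3892 distinct runs of 50 bases in its coding transcripts 0.41% occur, on either strand, in transcripts of another gene.

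**Figure D1:**
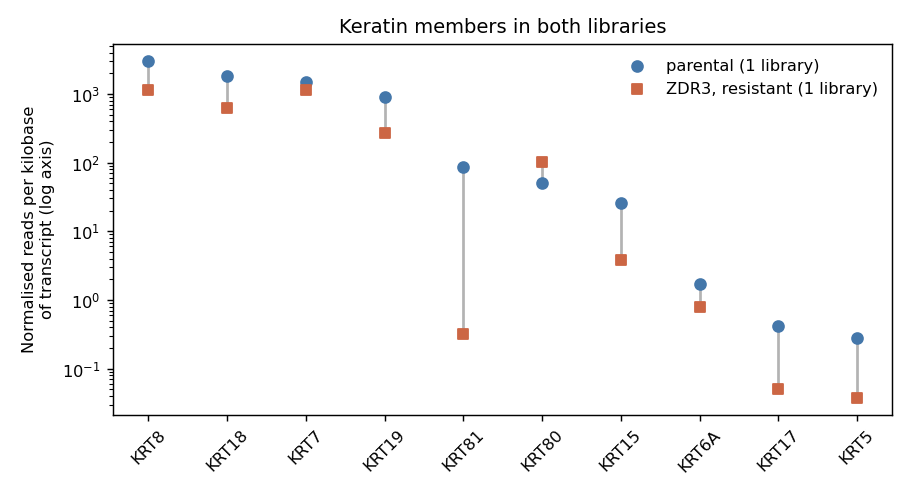
Level of each keratin in normalised reads per kilobase of transcript (log axis), with circles for the parental and squares for the ZDR3 library and grey lines joining the same gene. KRT80 alone lies higher in the ZDR3 library, KRT7 differs least among the 4 most abundant genes, and KRT81 spans the longest distance, from 85.6 to 0.324.

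Levels of different keratins can be compared per kilobase of transcript, for which the median length of the principal transcripts in GENCODE release 29 was used. In the parental library the order was KRT8 (3029), KRT18 (1849), KRT7 (1491) and KRT19 (888), then KRT81 (85.6), KRT80 (49.6), KRT15 (25.6), KRT6A (1.70), KRT17 (0.420) and KRT5 (0.277). Only 21 genes of the table with a length lay above KRT8. In the ZDR3 library KRT7 (1134) and KRT8 (1125) were level, followed by KRT18 (620), KRT19 (266) and KRT80 (101), with 94 genes above KRT7. KRT81 went from the fifth place to the eighth, at 0.324. The levels at the top depend on the length used. With all exons merged KRT7 came first in the parental library at 1491 and KRT8 came after KRT18 at 1244, since KRT8 has long alternative exons. In the ZDR3 library KRT7 (1134) then stood well above KRT8 (462), which was level with KRT18 (460). With coding length KRT80 (141) and KRT81 (109) changed places in the parental library. KRT17 and KRT5, with 95 and 100 parental reads, are too few to be ordered by their counts.

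The make-up of the keratin RNA shifted towards type II chains. The 10 members took 0.709% of all gene reads in the parental and 0.328% in the ZDR3 library, and made up 99.2% and 99.5% of the reads of all 55 keratins in the table. The summed level of the 4 type I members was 4089 and 1308, a 3.13-fold difference (3.11 to 3.14). That of the 6 type II members was 8677 and 4501, a 1.93-fold difference (1.92 to 1.93). Per kilobase of transcript the type II members summed to 1.69 times the type I members in the parental and 2.66 times in the ZDR3 library. With merged exons the ratio was 1.26 and 2.33, with coding length 1.80 and 2.98, so the shift had the same direction under each length. Without KRT7 the ratio was 1.15 and 1.38 per kilobase of transcript and 1.23 and 1.62 with coding length. With merged exons it was 0.606 and 0.774, so type II then lay below type I in both libraries.

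**Figure D2:**
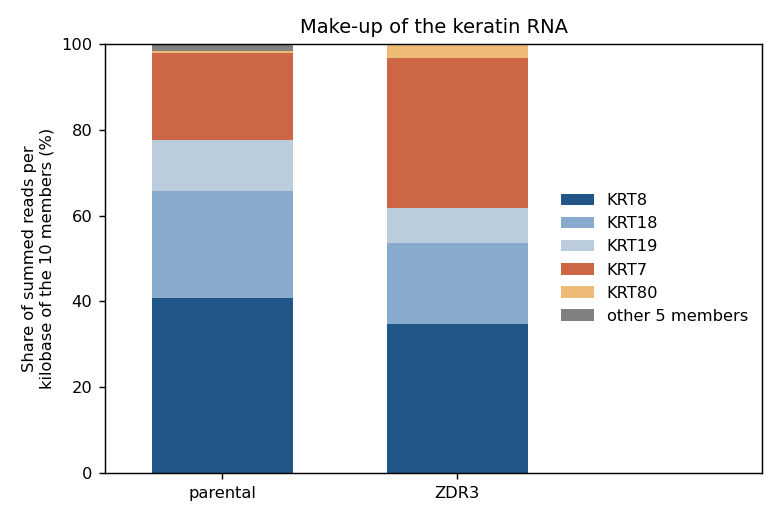
Share of each keratin in the summed reads per kilobase of the 10 members (bars from 0 to 100%), for the 1 parental and the 1 resistant library. KRT7 makes up 20.1% in the parental and 34.9% in the ZDR3 library, KRT8 40.8% and 34.6%, KRT18 24.9% and 19.1%, KRT19 12.0% and 8.17%, and KRT80 0.669% and 3.11%.

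KRT81 (ENSG00000205426), a type II hair keratin that is also seen in carcinoma cells, had the largest difference of the expressed keratins once 1 unit was added. It had 23579 reads in parental and 86 in ZDR3 cells, levels of 165 and 0.625. That is a 264-fold difference (214 to 330) and a log2 ratio of -6.67, and 18 of the 13777 expressed genes had a lower log2 ratio. In ZDR3 cells KRT81 was thus below the minimum level, and its direction was fixed by that. Its neighbour and near copy KRT86 had 2874 and 74 reads, and KRT83 had 2374 and 11. By plain fold KRT83, at 208 (116 to 417), has an interval that overlaps that of KRT81. So do KRT85, KRT75, KRT82 (31.9 to 7152) and KRT84 (15.5 to 227) described below, so none of these can be ordered against KRT81.

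Reads of these hair keratins can be confused with each other, so the sequences are shown where they differ most. The coding sequence of KRT81 is 94.0% identical to that of KRT86 and 93.2% identical to that of KRT83 over the aligned bases. Of the 50-base runs in KRT81 transcripts 43.7% also occur, on either strand, in transcripts of other genes, 37.6% in those of KRT86. Because both strands were matched, the overlap of KRT81 with KRT86 on opposite strands counts in these shares beside the likeness of the copies. Overlap and likeness were not told apart. The lines give the 60 coding bases, without gaps, at which both copies together differ most from KRT81, with every base that differs from KRT81 in capitals. They are taken from GENCODE release 29 transcripts and run from base 1249 to 1308 of the coding sequence in KRT81 and KRT86, and from 1264 to 1323 in KRT83.
KRT81: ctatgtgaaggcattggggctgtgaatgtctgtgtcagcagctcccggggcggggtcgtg
KRT86: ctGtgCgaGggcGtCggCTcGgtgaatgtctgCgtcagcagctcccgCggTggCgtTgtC
KRT83: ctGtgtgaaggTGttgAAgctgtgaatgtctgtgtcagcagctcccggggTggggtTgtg
Here KRT86 differs at 14 and KRT83 at 7 of the 60 bases. How the authors placed reads that match several genes is not given in the sources used here, so the split of the 86 and 74 resistant reads between KRT81 and KRT86 is uncertain. In release 29 the KRT86 gene also overlaps KRT81 on the opposite strand and KRT7 on the same strand, and the strand setting of the counts is not known.

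The genes on either side of KRT81 are given next, in order along the type II cluster on chromosome 12. The genome build of the deposited table is not given in the sources used here, so genes are placed by their order only. Between KRT7 and the KRT6 genes lie KRT86, KRT81, KRT83, KRT85, KRT84, KRT82 and KRT75, a run that was singled out after its values were seen. Their levels summed to 219 in parental and 1.33 in ZDR3 cells. All 7 reached a level of 1 in the parental library and 0 in the ZDR3 library, so they passed the minimum level through the parental library alone and their shared direction was fixed by that and by the choice. KRT85, a hair matrix keratin, had 1586 and 6 reads, a 255-fold difference (117 to 695). KRT75, a companion-layer keratin of the hair follicle, had 486 and 2 reads, a ratio of 234 (64.4 to 1938). KRT82, with 187 reads and 1 read, and KRT84, with 144 and 3, had log2 ratios of -1.20 and -0.97, which the added unit holds close to 0. Of 8 markers of the hair follicle 5 were expressed. At the 2-fold limit 2 were lower (all expressed genes 9.68%) and 1 higher (10.6%). The 2 lower are the keratins KRT85 and KRT86 of the run above. The higher one is the homeobox gene MSX2, with 93 and 341 reads (log2 ratio 1.07). Its levels were 0.651 and 2.48, so it passed the minimum level through the ZDR3 library alone. HOXC13, a regulator of hair keratin genes, had a level of 1.71 and 2.10, and PADI3, an enzyme of the follicle, one of 1.56 and 1.54.

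**Figure D3:**
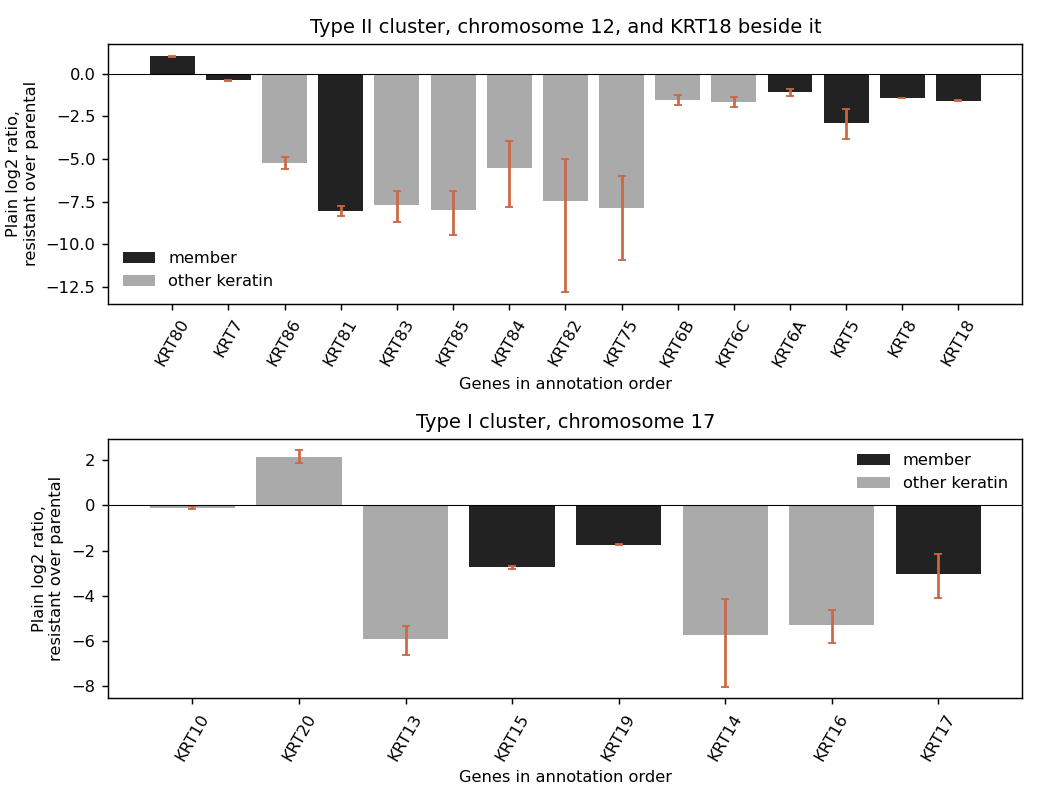
Plain log2 ratio (no added unit) of the members and of each other expressed keratin, in the order of the annotation, for the type II cluster on chromosome 12 (KRT18 stands at its end) and the type I cluster on chromosome 17. Dark bars are members, grey bars other keratins, and error bars exact 95% counting intervals, which are wide for genes with few reads such as KRT82. The run from KRT86 to KRT75 lies between KRT7 and the KRT6 genes and is lower than both, with KRT81 at -8.04 and KRT7 at -0.39.

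Genes just outside the type II cluster were mostly near their parental levels. The 5 nearest expressed genes before KRT80 had a median log2 ratio of 0.01 (range -1.89 to 0.66), with the nuclear receptor NR4A1 the lowest at 19.4 and 4.48, beside ACVRL1 (0.26), ACVR1B (0.01), GRASP (0.66) and C12orf44 (-0.11). The 5 nearest after KRT18 had a median of -0.02 (range -0.25 to 1.16), with EIF4B at 0.20, TENC1 at -0.13, SPRYD3 at -0.02, IGFBP6 at 1.16 and CSAD at -0.25. At the type I cluster all 10 nearest expressed genes had a log2 ratio below 0, where the median of all expressed genes, -0.03, also lies. The 5 before it had a median of -1.88: GJD3 (-0.21), TOP2A (-1.88), IGFBP4 (-1.98), TNS4 (-3.16) and SMARCE1 (-0.33). The 5 after it had one of -0.55: EIF1 (-0.23), HAP1 (-0.94), LEPREL4 (-0.48), FKBP10 (-0.55) and JUP, the gene of plakoglobin, which ties keratin filaments to desmosomes. JUP had a level of 1382 in parental and 145 in ZDR3 cells, a log2 ratio of -3.24.

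Among the basal and stress keratins KRT5 and KRT17 were scarce in both libraries, while KRT15 was not scarce in the parental one. KRT15 (ENSG00000171346), the type I keratin of basal and stem-like cells, lay above 68.8% of the expressed genes per kilobase in parental cells. It had 13940 reads in parental and 2018 in ZDR3 cells, levels of 97.6 and 14.7, and was 6.65-fold lower (6.35 to 6.97). KRT5 (ENSG00000186081), the main type II keratin of basal cells, had 100 and 13 reads, levels of 0.6999 and 0.0945. KRT17 (ENSG00000128422), a type I keratin of basal and wounded epithelium, had 95 and 11 reads, levels of 0.665 and 0.0799. Both had fewer reads in the ZDR3 library beyond counting error, at 7.41-fold (4.14 to 14.4) for KRT5 and 8.32-fold (4.45 to 17.2) for KRT17, but both lie under the minimum level, and their log2 ratios with the added unit were -0.64 and -0.62. KRT5 is the usual type II partner of KRT15 in basal cells, and per kilobase of transcript it stood at 0.277 in parental cells beside 25.6 for KRT15. KRT14, the other type I partner of KRT5, had 166 and 3 reads.

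KRT6A (ENSG00000205420), the inducible type II keratin of wounded epithelium, had 562 reads in parental and 252 in ZDR3 cells, levels of 3.93 and 1.83. It was 2.15-fold lower by plain fold (1.85 to 2.50), while its log2 ratio with the added unit was -0.80. With an added unit of 0.1 the log2 ratio of KRT6A was -1.06, which takes the members at least 2-fold lower from 5 to 6. Its copies KRT6B and KRT6C had 413 and 444 parental reads and 135 and 136 resistant reads, log2 ratios of -0.97 and -1.05. The 3 genes are hard to separate: the coding sequence of KRT6A is 97.5% identical to that of KRT6B and 97.9% to that of KRT6C, and 39.1% of its 50-base runs occur in other genes. The 60 coding bases at which the copies differ most from KRT6A, from base 663 to 722 in all 3, are shown from GENCODE release 29 with the differing bases in capitals.
KRT6A: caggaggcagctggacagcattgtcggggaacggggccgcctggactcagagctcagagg
KRT6B: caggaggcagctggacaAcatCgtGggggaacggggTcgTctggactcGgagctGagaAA
KRT6C: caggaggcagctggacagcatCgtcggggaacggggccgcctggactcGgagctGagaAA
KRT6B differs at 9 and KRT6C at 5 of these bases, and KRT6B and KRT6C share several of the capitals with each other. The usual type I partners of KRT6A are KRT16 and KRT17. KRT16 had 745 and 18 reads, a 39.9-fold difference (25.05 to 67.6), and KRT17 an 8.32-fold one, both with intervals above that of KRT6A.

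Sequence sharing also touches the abundant pair. KRT8 and KRT18 have many processed pseudogenes, and 16.2% of the 50-base runs of KRT8 transcripts and 35.9% of those of KRT18 occur in transcripts of other genes. For KRT18 the share with KRT8 alone is 16.2%. The annotated genes overlap on opposite strands, and such overlap counts in these shares, since both strands were matched. The table lists the pseudogene KRT8P11 with 7127 parental and 2477 resistant reads, a log2 ratio of -1.42, beside -1.43 for KRT8 itself. KRT19, KRT15 and KRT80 share under 2% each, at 1.64%, 0.31% and 0.41%, so their values are the least exposed to misplaced reads. Between members the closest pair compared was KRT5 and KRT6A, with coding sequences 83.4% identical, and 3.24% of the 50-base runs of KRT5 occur in other genes. The coding sequences of KRT8 and KRT7 are 75.6% identical, those of KRT8 and KRT18 65.0%, and those of KRT19 and KRT15 72.5% over the aligned bases.

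The remaining keratins were few. Of 25 other type I keratins 5 were expressed. At the 2-fold limit 3 were lower (all expressed genes 9.68%) and 1 higher (10.6%), and the median log2 ratio was -1.08. KRT13, a keratin of stratified non-cornified epithelium, had a level of 9.74 in the parental and 0.160 in the ZDR3 library (log2 ratio -3.21), and KRT16 one of 5.21 and 0.131 (-2.46). KRT10, known from suprabasal epidermis, was at 18.6 and 17.4 (-0.09). KRT20, a keratin of intestinal epithelium, was higher, with 127 reads in parental and 540 in ZDR3 cells, a log2 ratio of 1.38. Its levels were 0.889 and 3.92, so it passed the minimum level through the ZDR3 library alone, and its direction is no separate finding. Of 20 other type II keratins 8 were expressed. At the same limit 6 were lower (9.68%) and 0 higher (10.6%), and the median was -1.66. All 8 reached a level of 1 in the parental library and 0 in the ZDR3 library, as did KRT13, KRT14 and KRT16, so they passed the minimum level through the library where they are high, and their direction is no separate finding.

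Genes that anchor and organise keratin filaments were in part lower. All 14 linker and organiser genes were expressed. By 2-fold 6 were lower (all expressed genes 9.68%) and 0 higher (10.6%), and the median was -0.82. KRTCAP3, named as a keratinocyte-associated protein, had a level of 139 in the parental and 2.17 in the ZDR3 library (log2 ratio -5.47). The plakin PPL (periplakin), which binds keratin filaments at the cell margin, was at 26.4 and 3.28 (-2.68). PKP1, a desmosomal plaque gene, had 862 reads in parental and 0 in ZDR3 cells, at least 277-fold lower against a floor of 3 reads. PKP1 counts among the 6 lower genes but passed the minimum level through the parental library alone, so its direction is no separate finding. The large plakin linkers differed among themselves. PLEC (plectin) stood at 1912 and 1939 (0.02) and DST (dystonin) at 521 and 544 (0.06). DSP (desmoplakin), at 179 and 119 (-0.58), EPPK1 (epiplakin), at 4.58 and 2.06 (-0.87), and EVPL (envoplakin), at 34.1 and 16.4 (-1.01), were lower. These 5 plakins were named after their values were seen.

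Other intermediate filaments went both ways. The table held 15 of them, of which 9 were expressed. At the 2-fold limit 2 were higher (all expressed genes 10.6%) and 1 lower (9.68%), and the median was -0.21. VIM (vimentin), the filament of mesenchymal cells, had 3359 reads in parental and 177343 in ZDR3 cells, levels of 23.5 and 1289, a 54.8-fold difference (53.0 to 56.7). Per kilobase of transcript VIM stood at 12.6 and 690, which in ZDR3 cells is between KRT8 (1125) and KRT18 (620). This place may depend on the length used: with merged exons KRT8 and KRT18 stood at 462 and 460, and VIM was not placed by that length. SYNM (synemin) was at 5.50 and 12.3 (1.04), NES (nestin) at 10.4 and 1.85 (-1.998), and the nuclear lamin gene LMNA at 1596 and 992 (-0.69).

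**Figure D4:**
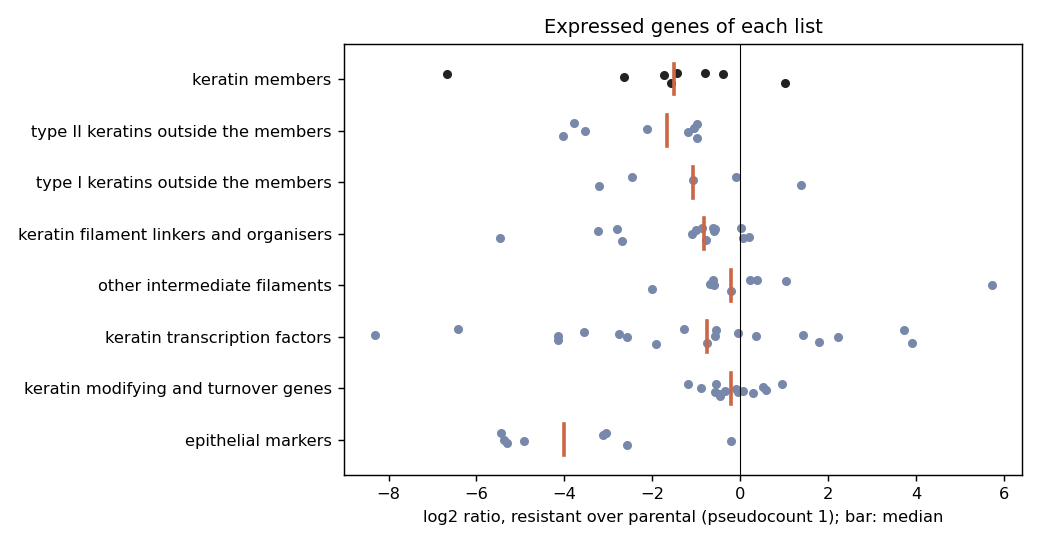
Log2 ratio of resistant over parental, with 1 unit added, for each expressed gene of 8 lists (dots, spread vertically for legibility), with the median of each list as a vertical bar. The keratin members have a median of -1.50, with KRT81 far to the left and KRT80 to the right of 0, and the point near 5.7 among other intermediate filaments is VIM.

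Transcription factors with known keratin promoter targets went in both directions. Of 20 listed 19 were expressed. By 2-fold 9 were lower (all expressed genes 9.68%) and 5 higher (10.6%), and the median was -0.76. EHF, GRHL2, TP63, OVOL1, OVOL2 and TFAP2C reached the minimum level in the parental library only, and ZEB2 and SNAI2 in the ZDR3 library only. The direction of these genes was fixed by that and is no separate finding. The epithelial factor EHF had 53599 reads in parental and 26 in ZDR3 cells (log2 ratio -8.31), and GRHL2 had 12764 and 8 (-6.42). TFAP2A, an AP-2 factor long known to bind keratin promoters, was at 162 and 8.15 (-4.16). TP63, the regulator of basal keratins such as KRT5 and KRT14, had 2398 reads and 0, at least 770-fold lower against a floor of 3 reads. The 5 higher factors, named after their values were seen, were ZEB1, with 872 and 14577 reads (3.91), ZEB2, with 65 and 2516 (3.73), JUN (2.22), SNAI2 (1.79) and FOSL1 (1.43). ZEB1, ZEB2 and SNAI2 are known as repressors of epithelial genes. So is SNAI1, which was lower, with 565 reads in parental and 266 in ZDR3 cells (-0.76). Whether these factors bear on the keratin levels was not tested.

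Genes of cornification, the end stage of squamous cells, were mostly under the minimum level in both libraries. Of 20 listed 3 were expressed. SCEL (sciellin) had a level of 191 in parental and 0.160 in ZDR3 cells (-7.37), and SPRR2D had 144 reads and 0. SCEL and SPRR2D passed the minimum level through the parental library alone, so their direction is no separate finding. TGM1, a transglutaminase that crosslinks the cornified envelope, was at 2.27 and 1.25 (-0.54). All 14 genes of keratin modification and turnover were expressed. By 2-fold 1 was lower (all expressed genes 9.68%) and 0 higher (10.6%), a count near that background, and the median was -0.22. The transglutaminase TGM2 was at 1249 and 548 (-1.19), the aggregate adaptor SQSTM1 at 823 and 1599 (0.96), the keratin-cleaving caspase gene CASP6 at 61.7 and 32.8 (-0.89) and the chaperone gene HSPA8 at 3505 and 5293 (0.59).

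Markers of other cell types are given for the same libraries. Of 8 basal and squamous markers 6 were expressed, and their list summed to a level of 238 in the parental and 46.9 in the ZDR3 library, with TP63 and PKP1 at 0 reads in the latter. SOX2 was at 187 and 8.81 and DSC3 at 10.5 and 0.320, while S100A2 was higher, at 14.7 and 37.5, and made up most of the ZDR3 sum. Of 8 fibroblast markers 2 were expressed, FBLN1 at 8.44 and 82.1 and COL1A1 at 9.15 and 1.76, and the list summed to 17.97 and 84.0. The leukocyte list (4 of 8 expressed) summed to 160 and 322, nearly all from CD68, the endothelial list (2 of 7 in the table) to 18.4 and 11.8, and the neuroendocrine list (2 of 8) to 2.56 and 2.83. The part of other cell types in the keratin values was not tested.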

How the data were processed

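Illumina HiSeq sequencing of polyadenylated RNA is stated per the labels' protocols. The submitters' processing notes list TopHat. The version, build, counter and strand setting were not given in the sources used here. Deposited values are log2 values per gene, described as RPKM by the authors. Back-transformed, they were whole multiples of 1 step per library (100% of values up to 100000 reads within 0.1 read), so they are reads times 1 factor and not divided by length. The lowest value, 0.9 reads, was taken as 0.

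Levels, ratios, Clopper-Pearson intervals and counts were computed in Python 3.11.15 with scipy 1.17.1, and coding sequences were aligned with Biopython 1.88. The step recovery, folds and intervals were tested on simulated data. Lengths came from GENCODE release 29 by Ensembl identifier, for 97.8% of expressed genes. KRT86 and KRT8P11 were matched by symbol. The length measure was chosen after its effect was seen. Intervals assume independent reads, and the libraries have no stated molecular identifiers. Count models were not used, since each group has 1 library.

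All 10 keratins are named, and other keratins and neighbours if expressed. From the lists outside the keratin family the rule allowed up to 4 expressed genes with the largest absolute log2 ratio. Genes named beyond these, such as CDH1, EPCAM, DSP, ZEB1 and PADI3, were picked after their values were seen, and the cell type marker lists are given by their sums and a choice of genes. Members and lists were chosen with earlier results of these data known.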

Additional observations from a re-analysis of the deposited data

How the results depend on the processing

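All 40 log2 ratios of the members, recomputed with added units of 0.1 and 5 and with 2 other scalings, kept their sign. The number of members at least 2-fold lower was 5 or 6 and the number at least 2-fold higher 1 under each added unit, scaling and minimum level tried. At a limit of 4-fold 2 members were lower (KRT15 and KRT81) and 0 higher. The median log2 ratio was -1.47 with the median of expressed genes set to 0, -1.48 with equal summed reads, -1.11 with no minimum level, where KRT5 and KRT17 enter, and -1.58 with a minimum level of 5. The share of KRT8 in the member reads was 44.7% in the parental and 36.5% in the ZDR3 library, and 40.8% and 34.6% per kilobase of transcript, a measure chosen after seeing the data. No paired analysis was possible because each group has 1 library. Spread between cultures is unknown, and depth limits KRT5, KRT17 and the resistant values of KRT81.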

Other observations

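Some keratins under the minimum level had more reads in the ZDR3 library and others had fewer. Those named here were picked after their values were seen. KRT79, a type II keratin of skin and its glands, had 6 reads in parental and 95 in ZDR3 cells, a 16.4-fold difference (7.28 to 45.9). KRT34, a type I hair keratin, had 10 and 47 reads (4.88-fold, 2.43 to 10.8), and KRT12, the keratin of the cornea, had 7 and 33 (4.89-fold, 2.13 to 13.1). In the other direction KRT37 had 34 reads in parental and 0 in ZDR3 cells, KRT32 had 14 and 0, and KRT3 had 18 and 2 (8.67-fold, 2.08 to 77.0). KRT76 had 27 and 26 reads. No read was counted in either library for 9 of the 55 keratins.

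Of 92 keratin-associated protein genes, which encode matrix proteins of the hair shaft, 4 were expressed, and they are the neighbouring genes KRTAP2-1 to KRTAP2-4 on chromosome 17. KRTAP2-3 had 198 reads in parental and 451 in ZDR3 cells, a 2.36-fold difference (1.997 to 2.81), and the other 3 had plain folds of 2.04, 1.90 and 2.20 in the same direction. Shared sequence among the 4 was not examined, so whether they are separate observations is not known. Of the 4, 1 reached the minimum level in the parental and 4 in the ZDR3 library, so 3 passed it through the library where they are high. Genes of the family under the minimum level went in both directions, and 73 of the 92 had no read in either library. KRTAP4-9 with 36 reads and 0, KRTAP4-1 with 28 and 2, and KRTAP5-1 with 31 and 10 had fewer in ZDR3 cells. KRTAP5-10 with 1 read and 6, KRTAP5-9 with 2 and 6, and KRTAP5-8 with 0 and 4 had more.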
